A study of Mus musculus with 16 samples.

Results

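The regions described here are distal stretches of open chromatin that were found in spermatogonia and not in later male germ cells. Open chromatin was mapped with ATAC-seq, in which the Tn5 transposase inserts adapters where DNA is accessible, in germ cells of C57BL/6 testes that were wild type or lacked Scml2 (Scml2-KO), a germline gene related to the Polycomb family. Spermatogonia purified for Thy1, which marks the undifferentiated cells (below Thy1), or for c-Kit, which marks those that have begun to differentiate (below cKit), came from postnatal day 7, and pachytene spermatocytes (PS) and round spermatids (RS) from adults. Each of the 4 stages had 2 wild-type and 2 Scml2-KO libraries, 16 in all, made from around 500000 spermatogonia, 250000 PS or 1000000 RS. The labels do not say how the Scml2 allele was made, how many animals were pooled or whether replicates came from separate animals, so every spread and p-value below is a spread between libraries, which may be technical. ATAC-seq peaks do not measure the loss of Scml2, so the genotype labels were not checked here. Stage and age cannot be told apart between P7 and adult cells.

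Peaks of the 16 deposited lists were merged wherever they overlapped by at least 1 bp, which gave 358583 regions on chromosomes 1 to 19, of which 270227 were distal, meaning that the authors annotated the strongest peak as intron or intergenic. A region was kept where all 8 Thy1 and cKit libraries had a peak and none of the 8 PS and RS libraries did. This left 888 regions, 473 intronic and 415 intergenic, or 0.329% of the distal regions. The presence of peaks in spermatogonia and their absence in adult cells is the rule itself and is given as a description, with no test. Of the regions of any annotation, 1234 (0.344% of all merged regions) separated the libraries in the same way, among them 123 promoter, 156 upstream and 67 exonic regions that are not considered further.

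Distal open regions include enhancers, stretches of DNA at which transcription factors bind and act on genes that can lie far away. In many cell types they are more specific to the cell type than promoters are, and enhancers that lie close together near one gene are often described as a cluster. Spermatogonia divide by mitosis and hold the stem cells of the testis, whereas PS are in meiotic prophase and RS are haploid cells that will be remodelled into sperm. An ATAC-seq peak shows that DNA was accessible and does not show which gene a region acts on, so the gene names below are those the authors attached to each peak.

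A missing peak means that none was called, which in the short lists is a weak statement. The lists held 17813 peaks (cKit Scml2-KO replicate 2) to 164060 peaks (RS Scml2-KO replicate 1). Just outside the rule lay 2954 distal regions with a peak in 7 of the 8 spermatogonial libraries and in no adult library, and 2683 of them lacked a peak only in cKit Scml2-KO replicate 2. Without that library the same rule gave 3571 regions, which included all 888. On the other side lay 345 regions with peaks in all 8 spermatogonial libraries and in 1 adult library, which in 172 cases was RS Scml2-KO replicate 1, the library with the longest list. The median fold enrichment, taken over the 8 spermatogonial libraries for each region, had a median of 9.62 among the 888 regions, 7.35 among the 2954 and 9.68 among the 345. The label was also checked against promoters of known markers. Of 33 autosomal genes of stem and progenitor spermatogonia, 19 to 32 had a peak within 1 kb of a transcription start site (TSS) in the spermatogonial libraries, and only Pax7 had none in all 8. In the adult libraries 18 to 30 had one, so the ranges overlapped. Promoters of meiotic prophase genes were open for 12 to 21 of 26 in spermatogonial and 23 to 26 in adult libraries, and those of spermatid and sperm genes for 14 to 22 against 23 to 33 of 33. Promoters of somatic cells of the testis were open too: 14 to 20 of 20 Sertoli cell genes in the spermatogonial and 7 to 14 in the adult libraries, and 7 to 17 against 4 to 11 of 17 peritubular and fibroblast genes. Endothelial genes had 3 to 11 against 1 to 7 of 14, with Pecam1 and Tie1 at 0 in all spermatogonial libraries. Leydig cell genes had 3 to 8 against 2 to 6 of 12, with Cyp11a1, Hsd3b1 and Hsd3b6 at 0, and immune genes 1 to 4 against 1 to 3 of 11, with Ptprc, Cx3cr1, C1qa, Itgam and Laptm5 at 0. All other genes of the endothelial, Leydig and immune lists had a peak in at least 1 spermatogonial library, as had every Sertoli, peritubular and fibroblast gene. Among meiotic prophase genes 5 had none in all 8, and among spermatid and sperm genes 9. The part of other cells in the 888 regions was not tested, and in bulk cells a region open in few cells cannot be told apart from one weakly open in all.

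Although all were annotated as distal, 19 of the 888 regions held a TSS of the RefSeq table used here (GRCm38.p6, the build of the files under another name, which covers 857 of the regions). In 14 of the 19 this TSS belonged to another gene than the one the authors named, and in 14 all 250 bases before the TSS lay inside the region. Windows that lay whole inside a region are shown for the 3 strongest of these regions and for the further ones whose TSS carried the authors' gene name, because for them the table holds sequence of the open region itself. They are printed 5′ to 3′ on the strand of the gene, and capitals mark matches to any of the motifs named below, on either strand.
Gm4258, chr1:137898214-137898463, plus strand: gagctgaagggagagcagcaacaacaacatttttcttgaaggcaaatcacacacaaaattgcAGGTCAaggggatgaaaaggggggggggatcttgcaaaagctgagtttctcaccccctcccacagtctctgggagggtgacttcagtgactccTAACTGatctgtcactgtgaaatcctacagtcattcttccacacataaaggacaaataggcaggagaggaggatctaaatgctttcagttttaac
Ank2, chr3:127409059-127409308, minus strand: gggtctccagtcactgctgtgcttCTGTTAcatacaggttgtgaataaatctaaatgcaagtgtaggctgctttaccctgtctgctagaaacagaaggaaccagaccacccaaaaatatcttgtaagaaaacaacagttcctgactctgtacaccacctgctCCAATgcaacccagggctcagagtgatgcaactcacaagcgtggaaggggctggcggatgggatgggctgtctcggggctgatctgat
Nfyc, chr4:120815714-120815963, minus strand: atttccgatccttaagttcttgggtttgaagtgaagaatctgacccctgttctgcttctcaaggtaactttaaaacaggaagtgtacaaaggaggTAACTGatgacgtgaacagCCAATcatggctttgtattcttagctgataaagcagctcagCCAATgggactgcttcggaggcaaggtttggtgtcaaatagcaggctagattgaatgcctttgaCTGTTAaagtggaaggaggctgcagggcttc
Slc25a25, chr2:32424067-32424316, minus strand: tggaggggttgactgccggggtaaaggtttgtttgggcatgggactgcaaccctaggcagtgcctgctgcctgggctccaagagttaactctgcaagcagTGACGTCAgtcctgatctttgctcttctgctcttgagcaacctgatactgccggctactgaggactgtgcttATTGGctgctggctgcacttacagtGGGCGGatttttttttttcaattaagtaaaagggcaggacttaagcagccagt
Pde1a, chr2:80038903-80039152, minus strand: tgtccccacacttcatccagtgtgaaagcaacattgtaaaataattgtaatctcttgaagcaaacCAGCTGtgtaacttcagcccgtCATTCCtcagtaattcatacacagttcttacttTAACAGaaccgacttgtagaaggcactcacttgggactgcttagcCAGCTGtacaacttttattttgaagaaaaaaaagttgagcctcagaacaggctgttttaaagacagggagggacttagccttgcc
Adam19, chr11:46127654-46127903, plus strand: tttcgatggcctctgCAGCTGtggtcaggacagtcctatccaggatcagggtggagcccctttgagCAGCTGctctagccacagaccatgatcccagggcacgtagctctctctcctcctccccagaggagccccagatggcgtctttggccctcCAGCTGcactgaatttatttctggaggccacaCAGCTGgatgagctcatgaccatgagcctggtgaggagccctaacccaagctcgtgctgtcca

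The motifs searched were AGATAA of the GATA factors, ETS (CCGGAAG), NR5A (TCAAGGTCA), AP-1 (TGANTCA), CRE (TGACGTCA), DMRT1 (TGTANCAA), SOX (AACAATG), FOX (TGTTTAC), TEAD (GGAATG), E-box (CAGCTG), RFX (GTTGCCAT), NF-Y (CCAAT), SP/KLF (GGGCGG), CTCF (CCNNNAGGG), STAT (TTCNNNGAA), RUNX (TGTGGTT), MYB (CNGTTA), NRF1 (GCGCATGC), the nuclear receptor half-site (AGGTCA), which lies within the NR5A motif, and EGR (GCGTGGGCG). The E-box CAGCTG stood at 4 places in the Adam19 window and at 2 in the Pde1a window. It was present in 7 of the 19 windows (36.8%) and in 13.0% of all 32817 windows of the table. The MYB motif was in 7 windows (36.8%, against 19.8%) and the NF-Y motif also in 7 (36.8%, against 33.8%), with 2 matches to CCAAT and 2 to the MYB motif in the window of Nfyc, which itself encodes a subunit of NF-Y. The AP-1 motif was in 3 windows (15.8%, against 6.75% of all), and the SP/KLF motif was also in 3 (15.8%, against 32.7%). The Slc25a25 window held the CRE, which was in 1 window (5.26%, against 1.55%). Half-sites were in 3 windows (15.8%, against 14.0%), CTCF in 4 (21.1%, against 18.5%) and TEAD in 2 (10.5%, against 12.6%). GATA and STAT were in 1 window each (against 9.99% and 7.01%), and ETS, NR5A, DMRT1, SOX, FOX, RFX, RUNX, NRF1 and EGR were in none (against 6.90%, 0.387%, 2.20%, 3.29%, 3.16%, 1.12%, 4.39%, 2.25% and 0.536%). With 19 windows these shares are a description. The GC content of the windows ranged from 41.6% to 68.4%, with a median of 49.6%, against a median of 52.4% for all windows.

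The regions were short and of moderate height. Their merged length ranged from 288 to 2774 bp with a median of 799 bp. Fold enrichment is the authors' value for a peak, its summit height over the background of the library. The median over the 8 spermatogonial libraries ranged from 4.57 to 25.7, with quartiles at 7.63 and 11.9, and 394 regions reached 10 whereas 9 reached 20. Intronic and intergenic regions had similar medians, 9.66 and 9.57. Distal regions open in all 8 adult and no spermatogonial library (449) had a median of 9.68 over the adult libraries, and the 413 distal regions open in all 16 libraries had one of 13.2, with a maximum of 88.9.

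The height depended on the library. The members' median fold enrichment was 13.9 and 10.9 (Thy1, wild type), 12.7 and 6.36 (Thy1, Scml2-KO), 11.3 and 6.68 (cKit, wild type) and 11.7 and 5.24 (cKit, Scml2-KO) (replicate 1 before replicate 2). Replicate 1 was thus the higher in all 4 groups, as it also had the longer list. The values rest on low pileups, the height at the summit as the peak caller wrote it, which is taken here as a count of overlapping reads or extended fragments. The median pileup was 22, 19, 24, 7, 18, 12, 21 and 9 in the same order of libraries, and 1 unit more of pileup changed the fold by 0.509 to 0.795. In cKit Scml2-KO replicate 2 the 888 regions took only 15 distinct fold values, and 565 of them (63.6%) had their lowest fold there, while 370 had their highest in Thy1 wild type replicate 1.

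**Figure D1:**
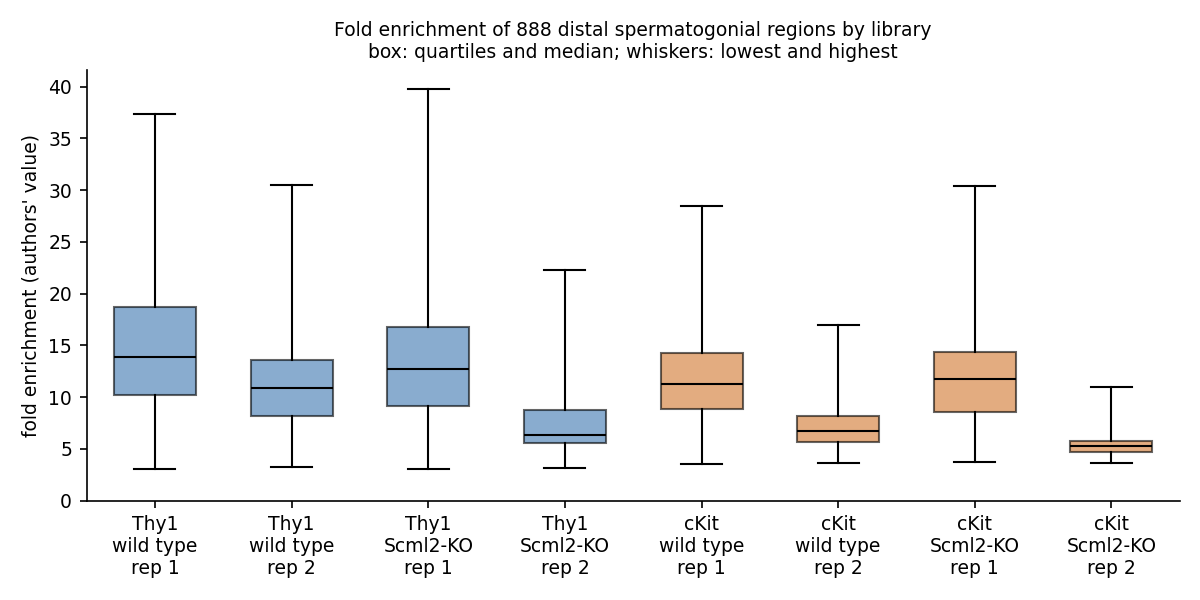
Fold enrichment (y axis, the authors' value) of the 888 regions in each of the 8 spermatogonial libraries (x axis; blue Thy1, orange cKit). Boxes give quartiles and median and whiskers the lowest and highest region; replicate 2 is below replicate 1 in each group, and cKit Scml2-KO replicate 2 has a median of 5.24 and a highest value of 11.0.

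The strongest region lay 67.9 kb upstream of Mir181a-1, a microRNA gene, in chr1:137898148-137899192, and it held the TSS of Gm4258 shown above. Its fold enrichment was 32.6 and 29.4 (Thy1, wild type), 36.2 and 13.5 (Thy1, Scml2-KO), 28.5 and 15.4 (cKit, wild type) and 22.9 and 11.0 (cKit, Scml2-KO). Its value in cKit Scml2-KO replicate 2 equalled the highest of any member there, and Thy1 and cKit values overlapped. The next strongest, 46.8 kb downstream of the TSS of Adamts1 (a secreted metalloproteinase; chr16:85755804-85756971), had 36.2 and 27.3 (Thy1, wild type), 39.7 and 17.5 (Thy1, Scml2-KO), 23.7 and 9.25 (cKit, wild type) and 22.9 and 6.82 (cKit, Scml2-KO). Here too the stages overlapped, with both lowest values in replicate 2 of cKit. A region 124 kb downstream of the TSS of Pfkfb3, which encodes a regulator of glycolysis, had 36.8 and 15.8, 29.5 and 20.7, 26.1 and 7.71, and 22.9 and 5.24 in the same order.

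Of the 12 strongest regions, 5 were intronic: those in Pappa (a protease that cleaves IGF-binding proteins), Galntl6 (a glycosyltransferase of the GalNAc family), Mef2c (a transcription factor), Cacna2d1 (a calcium channel subunit) and Zdhhc17 (a palmitoyltransferase). Their median folds were 21.0, 20.9, 20.2, 19.9 and 19.3. The intergenic ones carried the names of Mir181a-1, Adamts1, 4933440J02Rik (22.8), Pfkfb3, 4921511C10Rik (21.0), Pdcd1 (an immune checkpoint receptor, 20.6) and Rhob (a small GTPase, 19.6). A named gene can be far away: the Galntl6 region lay 1112 kb inside the gene and held the TSS of Gm2921. At the other end were the regions named for 1700123O12Rik, Gm4827 and Ralb, a Ras-like GTPase, with median folds of 4.57, 4.65 and 4.73. The longest was the 2774-bp region of Ulbp1, followed by those of Top1 (a DNA topoisomerase, 2661 bp), 5430421F17Rik (2539 bp), Reep3 (2369 bp), Zfp618 (2203 bp) and 2810429I04Rik (2109 bp), and the median folds of these 6 ran from 6.58 to 13.4.

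Most regions lay far from the TSS of the gene they were named for. The distance from the strongest summit to the TSS of the named gene had a median of 68.3 kb, 47.5 kb for intronic and 116 kb for intergenic regions, against 82.4 kb over all distal regions. The nearest RefSeq start was closer, at a median of 32.2 kb, and it bore the authors' gene name for 32.7% of the members on the chromosomes of that table. For the TSS of the named gene, the distance was under 5 kb for 49 regions (5.52%) and 5 to 50 kb for 304 (34.2%). It was 50 to 250 kb for 392 (44.1%) and above 250 kb for 143 (16.1%). Among all distal regions the same shares were 5.28%, 31.9%, 40.2% and 22.6%, so a smaller share of the spermatogonial regions lay above 250 kb. The adult-only regions had a median of 104 kb and the regions open in all libraries one of 50.1 kb. Intergenic members lay upstream of the named gene in 212 cases and downstream of its TSS in 203. With the transcript cut into 3 equal parts, 178 intronic members lay in the one nearest its start, 170 in the middle and 125 in the one nearest its end. Closed here does not mean a closed neighbourhood: 620 regions (69.8%) had a peak of some adult library within 10 kb, at a median distance of 4.94 kb over all members. The same share was not taken for other distal regions, and the distal regions of all libraries lay a median of only 2.67 kb apart. The 69.8% is therefore not a trait shown to be particular to the members.

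**Figure D2:**
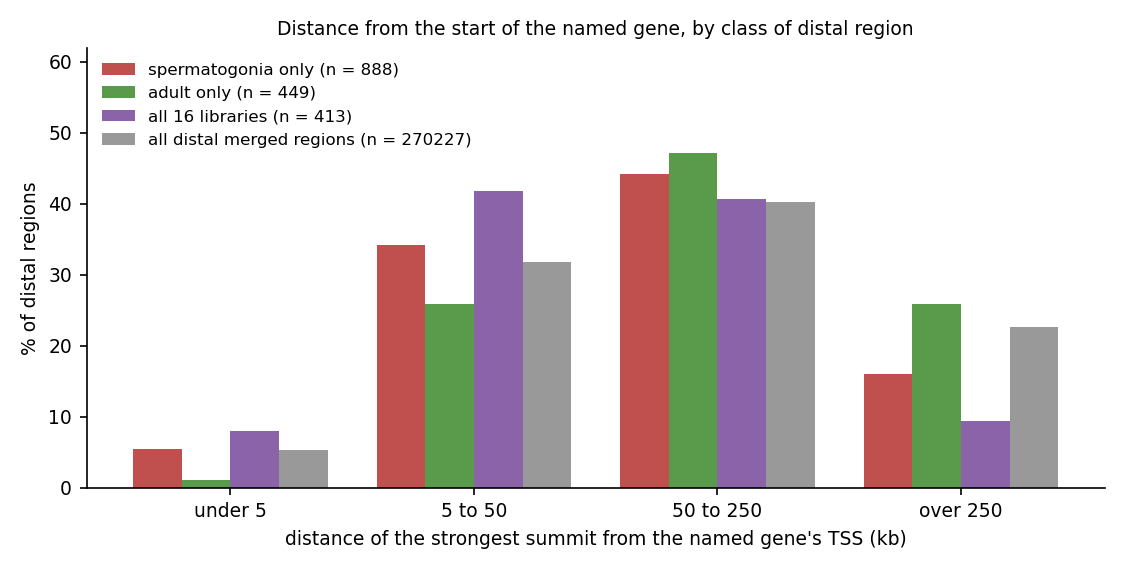
Share of regions (y axis, percent) in 4 classes of distance to the TSS of the named gene (x axis, kb), for the 888 spermatogonia-only, 449 adult-only, 413 always-open and all 270227 distal regions. The class of 50 to 250 kb holds 44.1% of the spermatogonia-only regions, and the class above 250 kb holds 16.1% of them against 25.8% of the adult-only ones.

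Most genes were named for 1 region, and a few for several. The 888 regions carried 753 gene names: 649 were used once, 79 were used for 2 regions, 19 for 3 and 6 for 4. The 104 genes with at least 2 (13.8%) held 239 regions, or 26.9%. The same share was 10.4% for the adult-only regions (42 of 403 names) and 7.55% for the regions open in all libraries (28 of 371), but the sets differ in size, and with wild-type libraries alone, which gave 6830 regions, the share was 38.9%, against 28.0% of the adult-only regions. Against the adult-only regions the order turned in 4 settings. With peaks of a −log10 q of at least 5 the share was 7.40% against 7.61% of the adult-only regions. There it was also below the 8.85% of the regions open in all libraries. With lists of equal length it was 7.49% against 9.59% of the adult-only regions. With Scml2-KO libraries alone it was 15.6% against 18.3%, and without PS Scml2-KO replicate 2 14.5% against 17.1%. The genes with 4 regions were Rhob, Mef2c, Klhl29 (a Kelch-like protein), Tns3 and Tns1 (tensins, which link integrins to actin) and Bbox1 (an enzyme of carnitine synthesis). Next by summed fold came Pappa, Klf6 (a zinc-finger transcription factor), 2310008H04Rik, Bach2 (a transcriptional repressor), Ctnnd1 (p120 catenin, of cell adhesion) and Nck2 (an adaptor protein) with 3 each. These names also collect many distal regions of any kind, from 23 for Ctnnd1 to 164 for Tns3. Without cKit Scml2-KO replicate 2, the library with the shortest list, Mef2c had 10 regions, Rhob and Bbox1 7 each, Klhl29, Tns3, Tns1, Klf6 and Bach2 6 each, Pappa 5, Ctnnd1 and Nck2 4 each and 2310008H04Rik 3. Stricter peaks lowered the counts: with a −log10 q of at least 5, Mef2c and Tns3 had 3 regions, Tns1, Pappa and Bach2 had 2, Rhob, Klhl29, Klf6, 2310008H04Rik and Nck2 had 1, and Bbox1 and Ctnnd1 had 0. With lists of equal length Bbox1, Klhl29, Ctnnd1 and Nck2 had 1 each, Klf6 had 3 and the others 2.

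**Figure D3:**
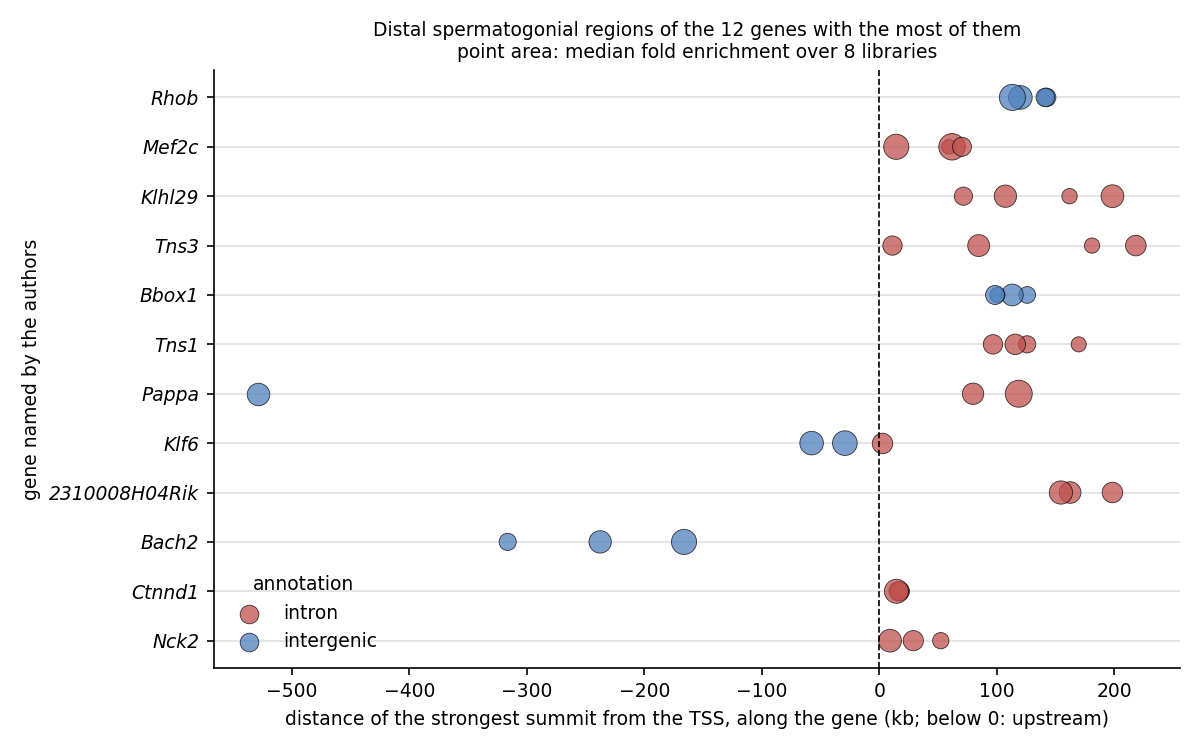
Distance of each region's strongest summit from the TSS along the gene (x axis, kb, below 0 upstream) for the 12 genes named for the most regions (y axis). Point area gives the median fold enrichment over the 8 spermatogonial libraries and colour the annotation; Rhob and Bbox1 have 4 intergenic regions each between 98.5 and 142 kb downstream, and the 4 Mef2c regions lie in its introns.

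The members of one gene differed in height. The 4 Mef2c regions spanned 56.7 kb of its introns, starting 14.4 kb from the TSS, with median folds from 6.20 to 20.2, and no library of any stage had a peak within 1 kb of the Mef2c TSS in the authors' annotation. The RefSeq table holds further Mef2c starts, and the region at chr13:83573779-83574584 has its strongest summit 781 bp from one of them. The strongest (chr13:83565541-83566529) had 27.1 and 24.0 (Thy1, wild type), 21.4 and 15.1 (Thy1, Scml2-KO), 20.2 and 12.3 (cKit, wild type) and 20.2 and 7.34 (cKit, Scml2-KO). Bbox1 likewise had no promoter peak in any library, and its 4 regions lay 98.5 to 126 kb downstream of its TSS. The 4 Rhob regions lay 113 to 142 kb from a promoter that was open in all 16 libraries, and so was that of Klhl29, Tns3, Klf6, 2310008H04Rik and Nck2. The promoter of Ctnnd1 was open in all 8 spermatogonial libraries and 1 adult library, that of Pappa in 7 and 1, that of Tns1 in 8 and 4 and that of Bach2 in 3 and 2.

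Some members stood close together. Joining members at most 12.5 kb apart gave 33 clusters with 70 regions (7.88%), against 2.67% of the adult-only regions and 7.02% of the regions open in all libraries. The 3 sets differ in size (888, 449 and 413 regions), and over all distal regions the share was 94.0%. These shares are thus not on an equal footing. The largest held the 4 Bbox1 regions in 28.0 kb (chr2:110179530-110207538). The 3 regions in introns of Ctnnd1 lay within 3.28 kb (chr2:84632852-84636134) and 3 of the Mef2c regions within 11.9 kb (chr13:83562684-83574584). Pairs near Rhob (7.71 kb) and in 2310008H04Rik (8.83 kb) came next by summed fold.

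Signalling pathways differed in how many of their genes carried a member. Of 20794 annotated autosomal genes, 758 (3.65%) were named for at least 1 region, counting each name of the 5 regions that carried more than 1, and there were 3.29 members per 1000 distal regions. These counts describe the lists, whose genes differ in how many distal regions they have. The Hippo pathway controls organ size through the YAP and TAZ coactivators. Of its 22 listed genes 6 (27.3%) had a member, or 11.2 per 1000 distal regions. None had an adult-only region, which few genes had at all (406 of 20794). Ctgf, a secreted target gene of the pathway, had a pair of regions 107 and 102 kb upstream. The one at 102 kb showed folds of 13.3 and 8.73 (Thy1, wild type), 13.2 and 7.95 (Thy1, Scml2-KO), 11.3 and 7.71 (cKit, wild type) and 12.3 and 7.34 (cKit, Scml2-KO). Its values overlapped between stages and were lower in replicate 2 of every group. Vgll4 and Vgll3, cofactors of the TEAD transcription factors, had 1 region each (median folds 13.9 and 8.84), as had the atypical cadherin Fat4 (9.99).

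In the Notch list 3 of 24 genes (12.5%; 12.6 per 1000) had members: Maml2 and Maml3, coactivators of the Notch complex, and Rbpj, its DNA-binding factor. Maml2 had 3 regions, and the strongest, 56.3 kb upstream, had folds of 30.1 and 11.5 (Thy1, wild type), 26.0 and 13.5 (Thy1, Scml2-KO), 21.4 and 5.65 (cKit, wild type) and 19.2 and 5.24 (cKit, Scml2-KO). Replicate 1 was the higher in every group, and the stages overlapped. Among extracellular matrix and integrin genes 5 of 37 (13.5%; 6.70 per 1000) had members, with 2 each for the basement membrane collagen Col4a2 and the integrin Itgb8, and 1 each for the integrins Itgb5 (13.7) and Itgav (10.5). Among AP-1 and immediate early factors 2 of 19 (10.5%; 9.93 per 1000) had them: Klf6, with 3 regions of 12.1 to 17.6, and the nuclear receptor Nr4a2 (15.8). Among feedback regulators of receptor tyrosine kinases, 2 of 21 genes (9.52%; 5.35 per 1000) had members, Spry2 with 3 and Spred1 with 1. TGF-beta, activin and BMP signalling had 3 of 35 (8.57%; 3.42 per 1000), in the receptors Tgfbr3, Acvr1 and Acvr2a. Wnt signalling had 2 of 39 (5.13%; 1.94 per 1000), the receptor Fzd8 and the secreted inhibitor Sfrp1. Hox and other developmental regulators had 2 of 52 (3.85%; 2.62 per 1000), Gata3 and Meis1, and Polycomb and trithorax genes 1 of 31 (3.23%; 2.45 per 1000), Scmh1, whose region had a median fold of 17.3.

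Only 1 gene of the lists that mark spermatogonia themselves carried members, too few to compare with genes at large. Of the 33 stem and progenitor genes only Zbtb16, a transcription factor needed for stem cell maintenance, had members (3.03%, against 3.65% of all genes). Per 1000 distal regions there were 3.63, against 3.29. An adult-only region was named for 5 of the 33, against 406 of the 20794 annotated autosomal genes. The pair of intronic Zbtb16 regions was weak, with median folds of 5.02 and 5.78. The first ran from 3.56 in cKit wild type replicate 1 to 14.8 in Thy1 Scml2-KO replicate 1. No gene had a member among 15 of differentiating spermatogonia, 26 of meiotic prophase, 33 of spermatids and sperm, 21 of retinoic acid metabolism and response, and 16 housekeeping genes. Of the somatic lists, members were named for 1 of 20 Sertoli cell genes (Fshr, the FSH receptor; 5%, or 3.82 per 1000), 1 of 14 endothelial genes (Esam, an adhesion molecule; 7.14%, or 2.51 per 1000) and none of 17 peritubular, 12 Leydig and 11 immune genes. The Fshr region, 22.8 kb into the gene, had folds of 21.1 and 17.5 (Thy1, wild type), 19.9 and 15.1 (Thy1, Scml2-KO), 11.3 and 7.20 (cKit, wild type) and 14.4 and 5.77 (cKit, Scml2-KO). All 4 Thy1 values were above all 4 cKit values on this scale, which is not adjusted for the library. On the percentile ranks described below the Thy1 and cKit libraries overlapped for this region (difference 23.2 points, adjusted p = 0.343 in limma).

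Promoters of the 758 named genes were open more often in spermatogonia than those of genes at large. In spermatogonial libraries 67.0% to 87.1% of them had a peak within 1 kb of a TSS, and in adult libraries 64.4% to 74.3%. Over all autosomal genes the means were 71.9% ± 6.87 and 67.1% ± 5.10 (SD, n = 8 libraries each), against 81.2% ± 6.79 and 67.6% ± 3.82 for the named genes. Within each library the named genes stood 8.46 to 9.81 percentage points above all genes in spermatogonia (median 9.36) and between -1.77 and 3.50 points from them in adult cells (median 0.700), and the 2 ranges did not overlap. A promoter open in all 8 spermatogonial and 1 to 7 adult libraries was found for 149 named genes (19.7%, against 8.57% of all genes), one open in all 16 for 337 (44.5%, against 47.3%), one open in all spermatogonial and no adult library for 10 (1.32%, against 0.457%) and none in any library for 58 (7.65%, against 12.7%). Part of the excess in the first of these states was shared by genes named for other distal regions. That state was held by 13.3% of genes with an adult-only region and 13.2% of genes with a region open in all 16 libraries. The mean share of open promoters in spermatogonial libraries was 72.8% and 74.9% for these genes. The regions were chosen by the same contrast between stages, so no test was made.

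**Figure D4:**
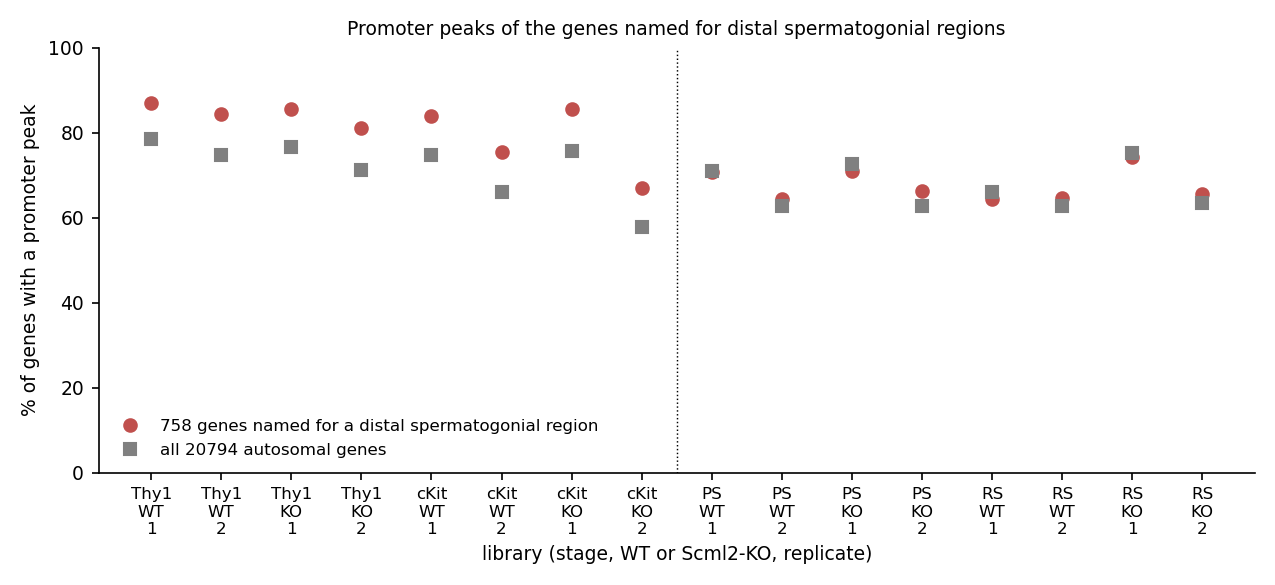
Percent of genes with a peak within 1 kb of a TSS (y axis) in each of the 16 libraries (x axis), for the 758 genes named for a member and for all 20794 autosomal genes. The named genes lie 8.46 to 9.81 points higher in the 8 spermatogonial libraries and within -1.77 to 3.50 points in the 8 adult ones.

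Thy1 and cKit libraries, which the rule did not tell apart, were compared by ranks. In each spermatogonial library the 12870 regions with a peak in all 8 of them were ranked by fold, from percentile 0 (weakest) to 100. Of these regions 2474 were distal, and the members were among the weaker ones. Their median percentile was 19.2 and 20.6 (Thy1, wild type), 23.7 and 16.7 (Thy1, Scml2-KO), 25.9 and 23.5 (cKit, wild type) and 33.3 and 24.8 (cKit, Scml2-KO). The mean was 20.1 ± 2.94 in Thy1 and 26.9 ± 4.41 in cKit (SD, n = 4 libraries), and the highest Thy1 library lay above the lowest cKit library. Other distal regions of the same set stood at 31.2 ± 2.34 and 36.3 ± 2.62, so a lower position in Thy1 was shared by them.

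No single member differed between Thy1 and cKit at an adjusted p under 0.05 in limma with Benjamini-Hochberg adjustment over the 12870 regions (0 of 888, and 0% of all 12870). The lowest adjusted p was 0.0947. At an unadjusted p under 0.05, 164 members (18.5%) ranked lower and 74 (8.33%) higher in Thy1, against 6.25% and 4.93% of all regions. All 4 Thy1 ranks lay below all 4 cKit ranks for 97 members (10.9%, against 3.85%) and above them for 42 (4.73%, against 3.19%). Members had to have a peak in the shortest list, a cKit one, so these counts are not a free comparison of the stages. The count of calls depended on the scale and on 1 library. Normal scores of the ranks called 34 of the 888 members lower in Thy1 and 5 higher, against 1.19% and 0.117% of all 12870 regions. The log2 fold centred on each library's median called 82 members lower and 5 higher, against 2.21% and 0.194% of all regions. Ranks without cKit Scml2-KO replicate 2 called 33 members lower and 0 higher, against 0.769% and 0.0311% of all regions. A fit with the replicate number as a block called 9 members lower and 0 higher, against 0.21% and 0.0155% of all regions. The same 9 members were lower in Thy1 in all 4 of these settings, among them those of Slc4a4, Slc44a3, Gm14393, Tmeff2, Epha6, Nxn, Zfp213 and Sesn3, chosen after their values were seen.

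The member with the lowest p was the intergenic region of Tmeff2 (a transmembrane protein with follistatin-like domains). Its percentile was 0.416, 6.43, 5.49 and 5.09 in the Thy1 libraries and 36.7, 28.7, 72.0 and 65.4 in the cKit libraries, in the order of wild type and then Scml2-KO. The groups did not overlap, and the difference was -46.4 ± 8.41 points (SE, adjusted p = 0.0947 in limma, 0.00157 to 0.371 over the alternatives). The region of the protocadherin Pcdh9 had 33.9, 4.78, 16.5 and 42.2 in Thy1 against 73.5, 81.5, 81.2 and 78.5 in cKit. Those of Gm14393, Zfp213 and Nxn (nucleoredoxin) were lower in all 4 Thy1 libraries as well, by -41.3, -44.4 and -47.0 points at the same adjusted p of 0.0947. In the other direction, the Nalcn region, in a gene for a sodium leak channel, had 67.6, 67.5, 88.8 and 62.8 in Thy1 and 33.1, 28.7, 6.33 and 35.0 in cKit, a difference of 45.9 ± 10.4 points (SE, adjusted p = 0.114 in limma). Ntmt1 (an N-terminal methyltransferase, 39.1 points), Prdm2 (a histone methyltransferase, 40.1), Twsg1 (a BMP-binding protein, 35.2) and Cnksr3 (a scaffold protein, 23.2) also had all Thy1 ranks above all cKit ranks.

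**Figure D5:**
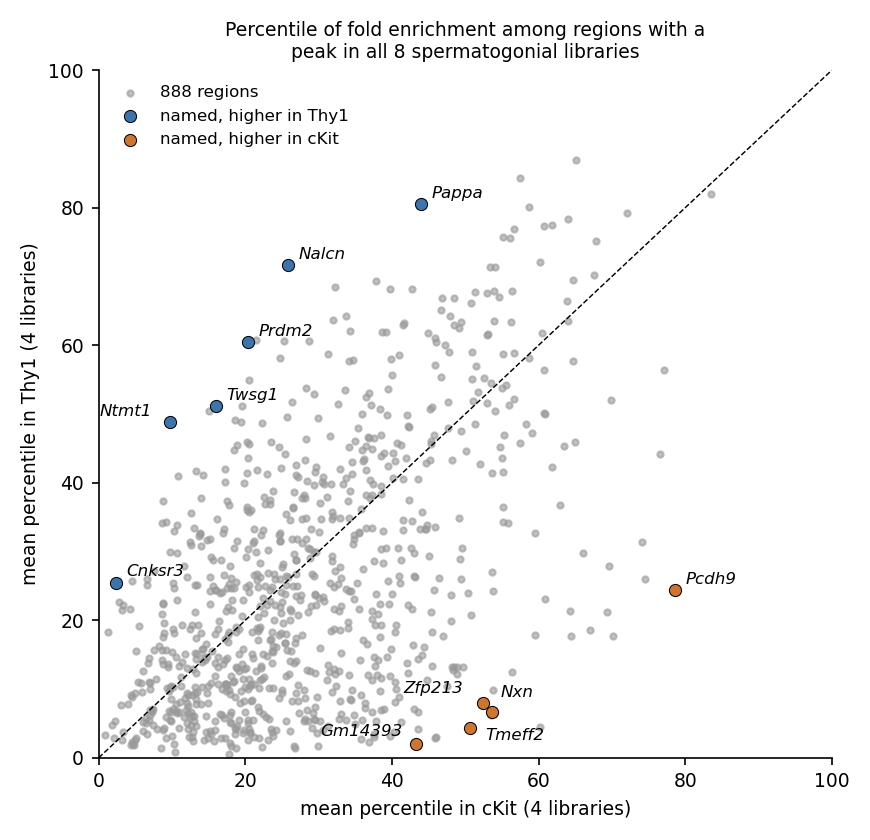
Mean percentile rank of each of the 888 regions in the 4 cKit (x axis) and the 4 Thy1 libraries (y axis), among the 12870 regions with a peak in all 8; the dashed line marks equal ranks. Colours mark members named in the text: Tmeff2 averages 4.36 in Thy1 and 50.7 in cKit, and Nalcn 71.7 and 25.8.

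Regions of the same gene did not always move together. Of the Mef2c cluster, the region at chr13:83562684-83563791 had a mean percentile of 1.49 in Thy1 and 26.8 in cKit, without overlap (difference -25.4 ± 5.43, SE, adjusted p = 0.114 in limma), while its strongest region, less than 5 kb away, differed by 2.64 points. In the Bbox1 cluster 3 regions ranked higher in Thy1 and the other one lower, by -35.3 points. All 3 Pappa regions ranked higher in Thy1, by 36.6, 39.4 and 21.4 points, and the first 2 without overlap. All 3 Nck2 regions ranked lower. None of these passed the adjusted threshold on the percentile scale with all libraries, and several did under alternatives in limma. The Mef2c region passed with normal scores and with centred log2 fold (adjusted p = 0.0191 and 0.00399), and so did the first Pappa region (0.0205 and 0.00940). Centred log2 fold also called the second Pappa region (0.0315), a Nck2 region (0.0211) and the Bbox1 region that ranked lower in Thy1 (0.0315), which passed without cKit Scml2-KO replicate 2 as well (0.0435). Among the members in the gene lists the lowest adjusted p was 0.301, in the Notch list, of which 1 Maml2 region passed with centred log2 fold (0.0466).

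Loss of Scml2 was compared in the same way, over the 4 Scml2-KO and 4 wild-type spermatogonial libraries. No member was called in limma (0 of 888, and 0% of all 12870; lowest adjusted p = 0.948), and none was under any of the alternatives run. At an unadjusted p under 0.05, 45 members ranked higher in Scml2-KO (5.07%, against 2.07% of all regions) and 7 lower (0.788%, against 2.28%). All 4 Scml2-KO ranks were above all 4 wild-type ranks for 12 members (1.35%, against 1.09%) and below for 5 (0.563%, against 1.42%). These counts are not a free comparison of the genotypes, since the shortest list, in which members had to have a peak, was a Scml2-KO one. The rule gave 6830 regions with wild-type libraries alone and 1160 with Scml2-KO libraries alone. The lowest p was that of a region of Tshz1 (a zinc-finger factor), with percentiles of 31.7, 29.8, 46.2 and 35.0 in Scml2-KO and 7.54, 0.831, 22.4 and 3.86 in wild type, without overlap and with a difference of 27.0 ± 6.88 points (SE, adjusted p = 0.948 in limma). Next was a region of Gsap (a gamma-secretase activating protein), with percentiles of 48.7, 42.2, 29.9 and 35.0 in Scml2-KO and 16.9, 4.78, 22.4 and 13.1 in wild type. These did not overlap, and the difference was 24.6 ± 7.60 points (SE, adjusted p = 0.948 in limma). Regions of Rpl10l, a ribosomal protein gene, and Tns1 also ranked higher without overlap, by 20.7 and 22.0 points. The Lrrc4c region (a synaptic adhesion molecule) ranked lower in Scml2-KO, by -32.3 ± 9.19 points, followed by those of Cdh12 (a cadherin, -20.3), Acot11 (an acyl-CoA thioesterase, -24.6) and Greb1l (-21.1), all at an adjusted p of 0.948. No difference of the Scml2 effect between Thy1 and cKit was called for any member (0, and 0% of all regions, in limma; 22 at an unadjusted p under 0.05, or 2.48%, against 1.89%).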

How the data were processed

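Open chromatin was measured by ATAC-seq in 16 libraries, sequenced as 75-bp single reads after a gel cut of 250 to 500 bp, per the labels' protocols. The submitters' processing notes name the aligner Bowtie 1.1.1, the peak caller MACS2 2.1.0.20140616 and the build mm10 (options not given in the sources used). The deposited lists give, for each peak, its fold enrichment (a ratio), pileup (signal at the summit) and −log10 p and q, with the authors' gene and annotation. Fold equalled pileup plus 1 over a constant of each list, to a relative deviation of 8.3e-06, so fold and −log10 q rank alike. Reads per library are not in these lists, so depth is unknown and the list lengths and pileups stand in for it.

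Peaks were merged at an overlap of 1 bp in Python 3.11.15 (pandas 2.3.3, numpy 2.4.6, scipy 1.17.1), with a region's highest fold taken per library. Percentile ranks were tested with limma 3.58.1 (R 4.3.3) with a mean-variance trend, stage and genotype as terms, and Benjamini-Hochberg adjustment at 0.05; the script was tested on simulated data. Named regions are the 12 strongest, 3 weakest and 6 longest members, the 12 genes and 5 clusters with most members, up to 4 genes per list, and the 6 and 4 members per direction of lowest p for stage and genotype; 1 of them is not reported here. Alternatives were other peak thresholds, overlaps, scales, a replicate block and leaving out each library. Members and lists were chosen with earlier results of these data known, and the motif search in RefSeq windows was chosen after seeing the data. Replicate numbers follow the sample titles; the names of all 16 deposited files carry another number, swapped in all 4 spermatogonial groups alike, which leaves the block the same fit but the naming of replicate 1 and 2 uncertain.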

Additional observations from a re-analysis of the deposited data

Results flagged for a closer look

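Among 86 sets of 4 libraries of one stage, 3 had a library that stood apart from the other 3 by Dixon's criterion (the gap to its neighbour as a share of the range), and chance alone would mark about 1 set in 20. In RS Scml2-KO replicate 1, the library with the longest list, 74.3% of the member genes had an open promoter, against 64.4% to 65.6% in the other RS libraries. The region of 4921511C10Rik had a fold of 14.3 in Thy1 Scml2-KO replicate 2 and 23.4 to 25.3 in the other Thy1 libraries. The region of Nxn had a percentile of 12.1 in Thy1 Scml2-KO replicate 1 and 4.78 to 5.09 in the other Thy1 libraries, and all of these lay below the cKit libraries.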

How the results depend on the processing

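The number of regions followed the peak threshold and the libraries. It was 367 with peaks of a −log10 q of at least 5, 536 with a fold of at least 5 and 447 with lists of equal length, of which 232, 364 and 252 were among the 888, and 25, 49 and 31 genes had at least 2 regions. With the q threshold and with equal lengths the share of such genes was below that of the adult-only regions (7.40% against 7.61%, and 7.49% against 9.59%). With the q threshold it was also below that of the regions open in all libraries (8.85%). With wild-type libraries alone there were 6830 regions and 1463 such genes. Leaving out each library in turn gave 893 to 3571 regions and 104 to 728 such genes, the highest without cKit Scml2-KO replicate 2 and at most 1059 and 132 without any other. For Thy1 against cKit, 39 members were called with normal scores, 87 with centred log2 fold, and 0 to 33 on leaving out each library. With the replicate number as a block 9 were called, and 0 for Scml2-KO and for the interaction. The replicate numbers are not known to pair libraries: same-numbered libraries deviated together with r of 0.0797 to 0.222 over 12870 regions. The cause of these changes was not tested. The difference of median percentiles, -6.80 points, ran from -8.02 to -4.65 on leaving out each library and was -3.25 among distal regions alone. Of 156 values for the named stage members 124 kept their side of the threshold and 32 passed it, and all 104 for genotype kept it. No direction reversed. The alternatives counted here include ranks by −log10 q, which equal the ranks by fold, so their values could not differ from the main ones. Of 276 per-gene counts 38 moved by over 1.5 times. Ranks among the members alone were not run, since they would adjust over the members only. In cKit Scml2-KO replicate 2 a median pileup of 9 limits what could be called.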

Other observations

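The X chromosome, which the choice of regions left out, had 16 distal regions open in all 8 spermatogonial libraries and in no adult one, of 6950 distal regions, and 0 with the opposite pattern. They were named for, among others, Mamld1 (2 regions), Araf (a RAF kinase), Stag2 (a cohesin subunit) and Pgrmc1. The Y chromosome had 0 of either kind among 228 distal regions. Chromosomes 1 to 19 had 888 of the first kind and 449 of the opposite one among 270227 distal regions, so both kinds were rare there too. A difference of the X from the autosomes was not tested.

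Autosomes differed in how many members they carried. There were 4.78 members per 1000 distal regions on chromosome 4, 4.68 on chromosome 10 and 4.35 on chromosome 2, against 1.85 on chromosome 11 and 1.22 on chromosome 19, which had 9 members. Across the 888 regions, fold values of replicate libraries had a median Spearman correlation of 0.586, those of the 2 genotypes at one stage 0.598 and those of the 2 stages 0.348, which describes regions that share libraries and depth.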
